A study of Mus musculus with 18 samples.

Results

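Mef2c sites that the authors' deposited list gives in 1 genotype only are described here, with the sites lost and the sites gained in cardiomyocyte-enriched cells of G9a knockout mice kept apart. A site was called lost where both values of the control cells (Cre) were 60 or more and both values of the knockout cells (KO) were 15 or less, and gained where the reverse held. On chromosomes 1 to 19 this gave 3570 lost and 937 gained sites among 532522 listed Mef2c regions, which is 0.670% and 0.176% of the list. The 4 deposited lists of the study together hold 2377384 regions.

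The study profiled G9a, H3K9me2, H3K27me3 and Mef2c by chromatin immunoprecipitation and sequencing (ChIP-seq) in cell populations enriched for cardiomyocytes, from C57BL/6J mice. The KO cells carried G9a flox/flox together with alphaMHC-MerCreMer +/-. The Cre cells carried alphaMHC-MerCreMer +/- without a floxed G9a allele in their labels. Each target had 2 libraries per genotype, and each genotype had 1 input library, which was not analysed here. Both groups share the transgene, whose alphaMHC (Myh6) promoter drives Cre in cardiomyocytes, so the deletion is limited to the cells in which that promoter is active. The age and sex of the mice and the tamoxifen regimen were not given in the sources used here. The labels call the 2 libraries of a group biological replicates and do not say how many hearts each came from. No expression data were used that could check the purity of the cells.

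Mef2c is a MADS-box transcription factor that binds AT-rich DNA and drives muscle and heart genes, and class IIa histone deacetylases hold it inactive. G9a, the product of Ehmt2, places mono- and dimethyl marks on lysine 9 of histone H3, a modification of silent chromatin in euchromatic regions. H3K27me3 is the mark of Polycomb repressive complex 2. In adult heart muscle, MEF2 factors take part in the growth response to stress and in the return of fetal gene expression.

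Sites over gene starts are the ones for which sequence was at hand. Windows of 300 bases, 250 before and 50 after a RefSeq gene start (GRCm38.p6), were touched by a lost site for 45 genes and by a gained site for 8 genes. The MEF2 consensus, searched by name with its standard letters and its own reverse complement, was present in 5 of 50 windows touched by lost sites (10%) and in 0 of 8 touched by gained sites. It was present in 3.10% of all 31396 windows and in 2.86% of the 7733 windows touched by any listed Mef2c region. These counts cover whole windows, of which a site can hold only a part. In the windows of the lncRNA genes Gm32918 and Gm40615 the match, at bases -26 and -14, lies outside the lost site. The 10% is therefore not the motif content of the lost sites themselves. Of the 5 windows with a match, 2 belong to protein-coding genes, and both are printed first, as their 250 upstream bases on the gene's strand with the match in capitals. Both windows lie wholly within a lost site. The first belongs to Rsph3a, which encodes a radial spoke protein of motile cilia, at chr17:7945364-7945613 on the plus strand, with the match at base -220 from the start. The second belongs to 1700019D03Rik at chr1:52953351-52953600 on the minus strand, with the match at base -95.

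Rsph3a: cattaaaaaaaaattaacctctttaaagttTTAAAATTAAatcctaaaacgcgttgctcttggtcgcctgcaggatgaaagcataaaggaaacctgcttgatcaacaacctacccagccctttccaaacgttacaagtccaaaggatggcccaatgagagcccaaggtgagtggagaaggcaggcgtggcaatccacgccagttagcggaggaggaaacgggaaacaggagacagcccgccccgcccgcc

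1700019D03Rik: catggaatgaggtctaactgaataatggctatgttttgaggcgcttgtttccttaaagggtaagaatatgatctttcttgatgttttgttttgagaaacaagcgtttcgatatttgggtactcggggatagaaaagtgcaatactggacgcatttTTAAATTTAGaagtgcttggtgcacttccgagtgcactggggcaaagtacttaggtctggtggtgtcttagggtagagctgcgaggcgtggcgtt

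The next 4 stretches show where a site sits against a gene start, with the bases inside the Mef2c site in capitals. Med12l, a paralog of a Mediator subunit, carries a lost site over the 127 bases nearest the start at chr3:59006728-59006977 (plus strand). Fancg, a member of the Fanconi anemia core complex, lies at chr4:43010302-43010551 (minus strand), and all 250 bases are inside a gained site. Arvcf, a catenin of the p120 family, lies at chr16:18347932-18348181 (plus strand) with 231 bases inside a gained site, which also covers the start of the divergent neighbour Tango2. Pdlim3, a PDZ and LIM domain protein that binds alpha-actinin at the Z-disc, lies at chr8:45885237-45885486 (plus strand) with 86 bases inside a gained site.

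Med12l: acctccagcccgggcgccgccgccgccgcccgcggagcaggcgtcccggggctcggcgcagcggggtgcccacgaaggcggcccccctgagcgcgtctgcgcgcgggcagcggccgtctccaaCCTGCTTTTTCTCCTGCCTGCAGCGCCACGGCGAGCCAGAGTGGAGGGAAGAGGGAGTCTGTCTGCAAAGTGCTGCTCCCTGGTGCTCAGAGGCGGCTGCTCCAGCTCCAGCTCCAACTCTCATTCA

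Fancg: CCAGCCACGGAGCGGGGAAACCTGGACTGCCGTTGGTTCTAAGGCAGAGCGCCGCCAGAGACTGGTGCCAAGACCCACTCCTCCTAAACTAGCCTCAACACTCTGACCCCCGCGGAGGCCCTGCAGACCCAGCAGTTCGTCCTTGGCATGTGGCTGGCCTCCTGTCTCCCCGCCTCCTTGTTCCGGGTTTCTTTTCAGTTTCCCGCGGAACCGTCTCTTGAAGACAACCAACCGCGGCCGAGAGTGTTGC

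Arvcf: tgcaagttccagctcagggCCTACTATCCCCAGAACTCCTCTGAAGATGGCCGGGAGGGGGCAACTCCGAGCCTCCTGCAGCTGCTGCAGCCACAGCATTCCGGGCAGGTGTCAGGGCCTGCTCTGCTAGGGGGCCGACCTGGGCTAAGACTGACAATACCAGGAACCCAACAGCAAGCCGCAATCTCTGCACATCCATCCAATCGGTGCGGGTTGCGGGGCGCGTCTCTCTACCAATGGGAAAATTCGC

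Pdlim3: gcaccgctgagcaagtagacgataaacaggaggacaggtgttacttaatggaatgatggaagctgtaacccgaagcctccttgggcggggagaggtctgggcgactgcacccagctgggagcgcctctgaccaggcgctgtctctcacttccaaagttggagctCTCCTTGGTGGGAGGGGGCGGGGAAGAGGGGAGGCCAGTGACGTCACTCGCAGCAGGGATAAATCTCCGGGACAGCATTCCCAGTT

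The site at Med12l had Mef2c values of 3 and 14 in KO and 282 and 104 in Cre. The site at Rsph3a had 1 and 0 in KO and 145 and 82 in Cre, and the one at 1700019D03Rik had 10 and 5 in KO and 229 and 152 in Cre. The gained site at Fancg had 122 and 81 in KO and 0 and 0 in Cre. The site shared by Arvcf and Tango2 had 88 and 111 in KO and 2 and 5 in Cre, and the one at Pdlim3 had 73 and 78 in KO and 9 and 4 in Cre. In each case the genotypes are apart by construction, since the values themselves chose the sites. Median GC content of the touched windows was 54.5% at lost sites, 59.3% at gained sites and 53% in all windows.

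All values are the authors' and come without a stated scale, so the depth behind them is unknown and no counting interval is given. Summed over the listed Mef2c regions of chromosomes 1 to 19, the values came to 44166378 and 48841905 in KO and to 59015489 and 56943037 in Cre, a log2 ratio of -0.32. Of the same regions, 61.7% were lower and 38.3% higher in KO. The list thus leans towards lower values in KO as a whole, and scaling the 4 libraries to the same sum left 2543 lost sites and gave 1212 gained sites. The ratio of lost to gained sites was 3.81 as deposited and 2.10 after this scaling.

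The lost sites had median Mef2c values of 4 and 6 in KO and 101 and 94 in Cre. Their highest values in Cre were 363 and 328, and 312 of them had 0 in both KO libraries. The gained sites had median values of 90 and 97 in KO and 6 and 7 in Cre, with highest KO values of 280 and 336. At 50 gained sites both Cre values were 0. Per kb of site, the lost sites had medians of 8.89 and 11.4 in KO and 234 and 215 in Cre, and the gained sites 214 and 231 in KO and 12.0 and 14.3 in Cre. The median log2 ratio of KO to Cre, with 1 added to each mean, was -4.06 at lost sites and 3.85 at gained sites. Relative to the shift of the whole list these are -3.74 and 4.17. In a bulk population, fewer cells that carry a site and a weaker signal per cell cannot be told apart.

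**Figure D1:**
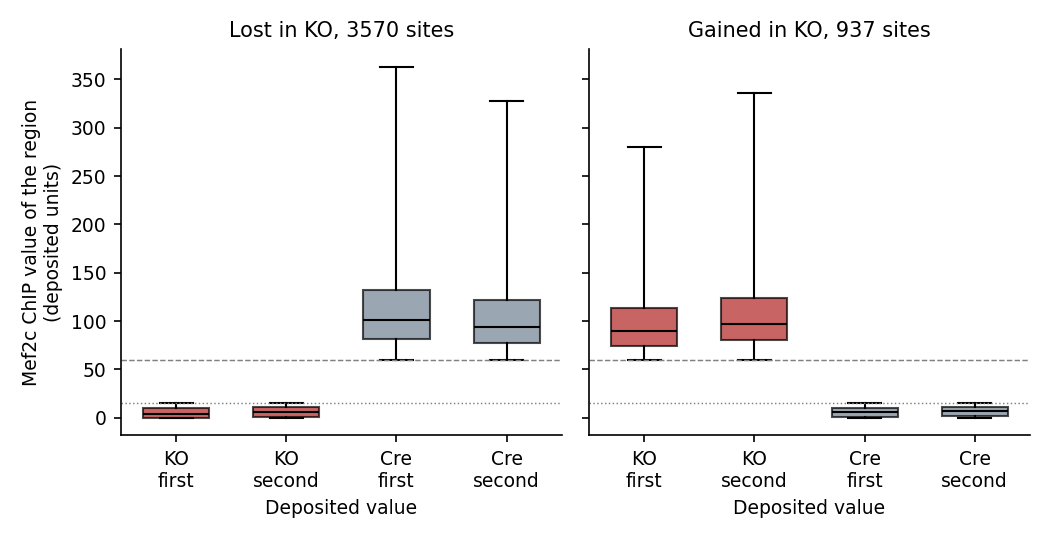
Deposited Mef2c ChIP value of each lost site (left, 3570 sites) and gained site (right, 937 sites) in the first and second KO library and the first and second Cre library. Boxes span the quartiles with the median as a line, whiskers reach the lowest and highest site, and the dashed and dotted lines mark the limits of 60 and 15 that chose the sites, so the gap between genotypes follows from the choice.

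The 2 libraries of the genotype that lacks a site seldom shared that low value. Of 305096 listed Mef2c regions with both Cre values at 60 or more, 34233 (11.2%) had 15 or less in the first KO library and 25343 (8.31%) in the second. Both KO libraries were low at 3570, which is 10.4% of the regions low in the first library, against the 8.31% of all 305096 regions that were low in the second. Where the first KO library was low, the median value of the second was 64, against 72 over all these regions. For gained sites the same reading gave 214260 regions with both KO values at 60 or more. Of these, 12661 (5.91%) were low in the first Cre library and 10254 (4.79%) in the second, and 937 in both, 7.40% of the regions low in the first. A low value in 1 KO library therefore went with a low value in its partner only a little more often than over all these regions. Between the Cre libraries the gap was somewhat wider, 7.40% against 4.79%, with a median of 64 in the second library against 89. The deposited values cannot tell a lost or gained site apart from a region that both libraries happened to cover thinly.

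Within the genotype that has the site, the higher of the 2 values was a median 1.32 times the lower at lost sites and 1.29 times at gained sites. The higher value was more than 2 times the lower at 290 lost sites (8.12%) and 69 gained sites (7.36%).

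Many regions lie close to the limits. The lower Cre value was 60 to 64 at 382 lost sites, and 330 regions just missed with 55 to 59. The higher KO value was 11 to 15 at 1463 lost sites, and 2107 regions just missed with 16 to 20. For gained sites the same counts were 114 inside and 94 outside at the upper limit, and 440 inside and 737 outside at the lower limit. Just inside, the site nearest Chd7 had 14 and 10 in KO and 71 and 60 in Cre, and the one nearest Upp2 had 67 and 63 in KO and 15 and 15 in Cre. Just outside, a region nearest Mta3 had 15 and 13 in KO and 59 and 69 in Cre. The limits cut through a continuous range of values.

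Lost and gained sites were short. The median length was 450 bp (350 to 1150) for lost sites, 400 bp (350 to 1000) for gained sites and 600 bp for all listed Mef2c regions. The shortest length in the list, 350 bp, was found at 22.4% of lost sites, 28.7% of gained sites and 8.71% of all regions. The limits act on the value of a whole region, so a long region passes the low limit only with a lower value per kb. The rule thus favours short regions, and its part in these lengths was not tested. Limits on the value per kb kept 1476 of the 3570 lost sites and 299 of the 937 gained sites.

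Among lost sites in or near a named gene, those with the highest -log10 p of the authors' deposited list lay inside a gene in 9 of 10 cases. The site in Myo1d, an unconventional myosin, had 8 and 4 in KO and 219 and 313 in Cre. That in Parva, the focal adhesion protein alpha-parvin, had 0 and 1 in KO and 289 and 168 in Cre. Srgap3, a GTPase-activating protein of the Slit and Robo pathway, had 4 and 5 in KO and 276 and 219 in Cre. Each of these 3 sites is at 8 or less in both KO libraries and above 160 in both Cre libraries. The site in Boc, a Hedgehog co-receptor, had 9 and 14 in KO and 339 and 195 in Cre. Elmo1, a partner of Dock proteins in Rac activation, had 0 and 2 in KO and 324 and 99 in Cre, so its Cre libraries differ more than 3-fold. A site 4486 bp from Kif5c, a kinesin heavy chain gene, had 0 and 0 in KO and 248 and 195 in Cre. The remaining 4 of the 10 lie in Hecw1, Egfem1, Ptprn2 and Mctp1, with KO values of 0 to 14 and Cre values of 191 to 328. By the lower of the 2 Cre values, the strongest lost sites were those at Hecw1 (14 and 12 in KO, 255 and 328 in Cre) and 46567 bp from Gm6729 (3 and 3 in KO, 299 and 252 in Cre). The others were near Olfr1414 (236 and 247 in Cre) and Serpinb3b (228 and 243 in Cre) and inside Ptprn2 (240 and 235 in Cre). None of these 5 lies at a gene of the cardiac lists described further on.

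All 10 gained sites with the highest -log10 p by the same rule lay inside a gene. Scaf4, which acts in transcription termination, had 261 and 223 in KO and 15 and 4 in Cre. Dach1, a transcription factor of the retinal determination network, had 193 and 204 in KO and 0 and 4 in Cre. Casz1, a zinc finger factor required for heart development, had 195 and 201 in KO and 0 and 4 in Cre. In all 3 the KO libraries differ little from each other. Mtf1, the metal-responsive transcription factor, had 103 and 272 in KO and 0 and 0 in Cre, and a second gained site in Mtf1 had 154 and 162 in KO and 15 and 0 in Cre. Nfib, of the nuclear factor I family, had 157 and 201 in KO and 3 and 2 in Cre. Slc7a11, the cystine and glutamate exchanger, had 280 and 95 in KO and 8 and 0 in Cre. The last 4 of the 10 lie in Sgo2b, Ankrd24, Unc80 and Slit1, with KO values of 136 to 277 and Cre values of 0 to 15. The gained site with the highest -log10 p of all lay 12212 bp from Plekhf2, with 234 and 336 in KO and 0 and 0 in Cre.

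Against the RefSeq protein-coding genes (GRCm38.p6), gained sites lay inside genes more often than lost sites did. Inside a gene span were 36.4% of lost sites (95% Clopper-Pearson interval 34.8 to 38.0), 48.5% of gained sites (45.2 to 51.7) and 39.2% of all listed Mef2c regions. Within 10 kb of a gene, the span included, were 46.6% of lost sites, 57.2% of gained sites and 48.8% of all. More than 100 kb from any such gene were 28.9% of lost sites, 23.1% of gained sites and 28.3% of all. The lost sites thus followed the whole list to within 3 percentage points at each distance, and the gained sites were more than 8 points above it inside and near genes. Neighbouring sites are not independent, so these intervals cover counting error only. Within 1 kb of a gene start, where chromosome 18 had no start to use, were 2.93% of lost sites, 3.34% of gained sites and 3.05% of all. Whether a site is exonic or intronic was not analysed here.

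**Figure D2:**
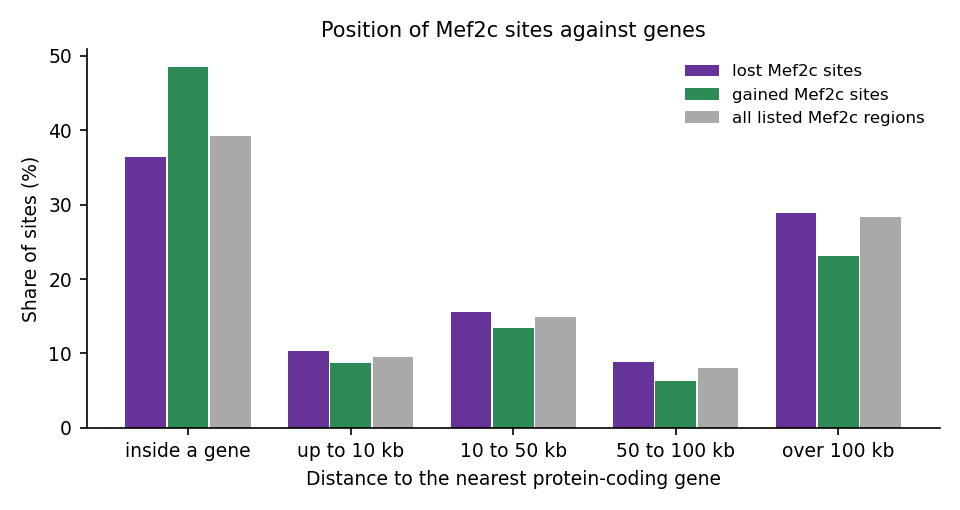
Share of lost Mef2c sites, gained Mef2c sites and all listed Mef2c regions on chromosomes 1 to 19, in percent, by distance to the nearest protein-coding gene. The bar for sites inside a gene is 48.5% for gained sites, against 36.4% for lost sites and 39.2% for all regions.

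A lost site lay inside or within 2 kb of 1210 of 20665 protein-coding genes (5.86%), and a gained site in or at 470 (2.27%). These genes were long, with a median of 101 kb for those with a lost site and 98.4 kb for those with a gained site, against 17.5 kb for all genes. Lost sites recurred in 165 genes and gained sites in 25. The genes with most lost sites, named after their values were seen, were Ctnna2, which encodes the neuronal alpha-catenin, and Lsamp, a cell adhesion protein of neurons, with 6 each. Ctnna2 spans 1098 kb and Lsamp 2197 kb. The gene with most gained sites was Ptprd, a receptor tyrosine phosphatase gene of 2271 kb, with 3. Both kinds of site occurred at 90 genes, which is 7.44% of the genes with a lost site and 19.1% of those with a gained site. Gene length thus moves with these counts, and its part in them was not tested.

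By chromosome, lost sites made up 0.473% (chromosome 4) to 0.852% (chromosome 17) of the listed Mef2c regions, and gained sites 0.117% (chromosome 8) to 0.313% (chromosome 4). Chromosome 4 had both the smallest share of lost and the largest share of gained sites, and its ratio of lost to gained sites, 1.51, was the lowest, against up to 5.74 on chromosome 10. Between neighbouring lost sites 303 gaps were under 50 kb, with a median gap of 450 kb. Between gained sites, which are fewer, 19 gaps were under 50 kb, with a median of 1665 kb. No background of gaps was computed, so grouping cannot be read from these counts.

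**Figure D3:**
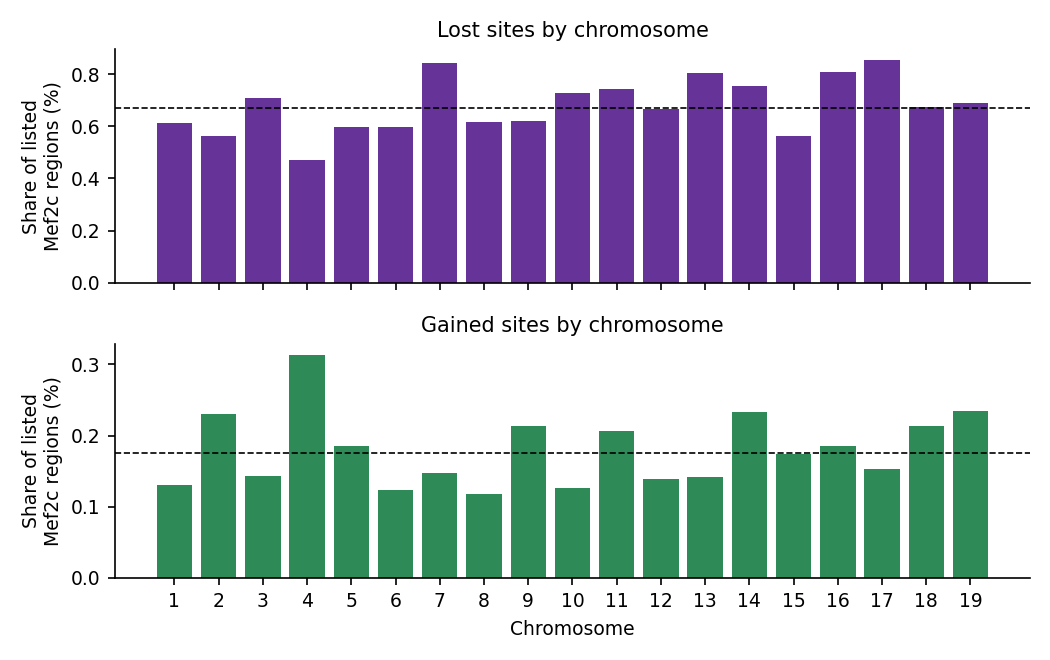
Lost sites (top) and gained sites (bottom) as a percentage of the listed Mef2c regions of each chromosome from 1 to 19, with the value over all of them as a dashed line (0.670% and 0.176%). Chromosome 4 is lowest for lost sites (0.473%) and highest for gained sites (0.313%), and chromosome 17 is highest for lost sites (0.852%).

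Chromosome 17 carries Ehmt2, the gene that was deleted, at 34898463 to 34914073. None of the 6 Mef2c regions listed in Ehmt2 is a lost or gained site. Within 25 Mb of Ehmt2, 107 of 11720 listed Mef2c regions were lost (0.913%) and 18 were gained (0.154%). Of these 107 lost sites, 23 had 0 in both KO libraries (21.5%), against 4 of 71 (5.63%) on the rest of chromosome 17 and 312 of 3570 (8.74%) over all chromosomes. A lost site at chr17:39983401-39983850, 28114 bp from Esp38, is an example. Its Mef2c values were 0 and 0 in KO and 77 and 128 in Cre, and the G9a region that touches it had 0 and 0 in KO and 271 and 160 in Cre. The H3K9me2 region there had 0 and 0 in KO and 173 and 150 in Cre. A second one, 91168 bp from Pgk2, had Mef2c values of 0 and 0 in KO and 184 and 147 in Cre, with H3K9me2 at 0 and 0 in KO and 182 and 229 in Cre. At both, the KO libraries of different antibodies are at 0 together. An H3K9me2 region with 0 in both KO libraries touched 6 lost sites, 5 of them within 25 Mb of Ehmt2, and 9 Mef2c regions of the whole list (0.00169%). For G9a such a region touched 3 lost sites, 1 of them within 25 Mb of Ehmt2, and 148 Mef2c regions of the whole list (0.0278%). For H3K27me3 it touched 2 lost sites, none of them within 25 Mb, and 28 Mef2c regions of the whole list (0.00526%). Of the 57 sites picked by rule for the most extreme values of another target, 8 lie within 25 Mb of Ehmt2 (14%), where 2.2% of all listed Mef2c regions lie. The part of linkage to the floxed allele in these sites was not tested.

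The lists of the other 3 targets give values that did not choose the sites. A Mef2c site was counted as touched where it shared at least 1 base with a listed region of that target, and the direction of a region is the sign of its log2 ratio of KO to Cre. Those lists too hold only regions that the authors found to differ, so each share is read beside the same share of all listed Mef2c regions. Over all listed Mef2c regions that another target touched, a region lower in KO was present at 68.4% for G9a, 72.4% for H3K27me3 and 42.4% for H3K9me2, so the first 2 targets lean to lower and H3K9me2 to higher regions before any site is chosen. The share of touched sites with a lower region was above these values at lost sites and under them at gained sites for each of the 3 targets, with no test of the difference. Listed Mef2c regions outside both kinds of site leaned the same way, but less far. Where such a region was lower in KO, the share was 73.8% for G9a, 76.7% for H3K27me3 and 47.9% for H3K9me2. Where it was higher in KO, the shares were 59.05%, 64.3% and 32.9%. The direction of the lean is therefore not particular to lost and gained sites.

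G9a itself was lower in KO at 28.6% of lost sites (1020 of 3570), against a background of 31.1%, and higher at 7.98%, against 17.3%. At gained sites G9a was lower at 9.50% and higher at 18%. The share of gained sites with lower G9a is thus far under the background, and the share with higher G9a is close to it. The 1323 G9a regions at lost sites summed to 138303 and 111411 in KO and 215013 and 198141 in Cre, a log2 ratio of -0.73, against -0.30 for the whole G9a list. The 259 regions at gained sites summed to 38326 and 36057 in KO and 32376 and 29655 in Cre, a log2 ratio of 0.26. In both comparisons the KO and Cre sums do not overlap, and the exact two-sided permutation p was 0.33, the smallest that 2 against 2 allows. Of the sites that a G9a region touched, 80.2% of lost and 36.2% of gained sites had one that was lower in KO, against 68.4% of all listed Mef2c regions.

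H3K9me2, the mark G9a places, was lower in KO at 25.3% of lost sites, against 21.2% of all listed Mef2c regions, and higher at 16.1%, against 32.2%. At gained sites it was lower at 4.38% and higher at 26.3%. By the share of touched sites, H3K9me2 set the 2 kinds of site furthest apart: 63.7% of lost and 14.5% of gained sites had a region that was lower in KO, against 42.4% of all. The 1486 H3K9me2 regions at lost sites summed to 167274 and 174315 in KO and 202931 and 182421 in Cre, a log2 ratio of -0.17, while the whole list stood at 0.26. The 291 regions at gained sites summed to 43057 and 47047 in KO and 25095 and 22046 in Cre, a log2 ratio of 0.93. Sums did not overlap in either case, with an exact two-sided permutation p of 0.33 each.

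H3K27me3 was lower in KO at 29.7% of lost sites, against 29.8% of all listed Mef2c regions, and higher at 6.27%, against 15%. At gained sites it was lower at 12.7% and higher at 14.3%. The 1301 H3K27me3 regions at lost sites summed to 342917 and 328724 in KO and 510505 and 505515 in Cre, a log2 ratio of -0.60, against -0.31 for the whole list (exact two-sided permutation p = 0.33). At gained sites the 255 regions summed to 90051 and 87394 in KO and 97241 and 87048 in Cre, so the genotypes overlap (exact two-sided permutation p = 1). Of the sites that an H3K27me3 region touched, 85.2% of lost and 50.2% of gained sites had one that was lower in KO, against 72.4% of all. The Polycomb mark was therefore mixed at gained sites.

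Lost and gained sites are shorter than the regions of the whole list, and a share of sites touched counts a short and a long site alike. With an overlap of at least 50% of the site, lower G9a was found at 24.1% of lost sites against 21.2% of all listed Mef2c regions, and lower H3K27me3 at 26.3% against 21.5%, so G9a passes to the other side of the background and H3K27me3 leaves it. At gained sites higher H3K9me2 was then found at 23.5% against 21.7%, and higher H3K27me3 at 12.8% against 9.45%, where both were under the background before. Counted as shares of bases, which do not depend on length, lower G9a covered 22.5% of the bases of lost sites, 5.87% of those of gained sites and 21.5% of all listed Mef2c regions. Higher G9a covered 4.53%, 14.5% and 10.7% in the same order. Lower H3K9me2 covered 19.8%, 2.49% and 13.7%, and higher H3K9me2 9.99%, 21.2% and 21.6%. Lower H3K27me3 covered 25.1%, 8.64% and 22.0%, and higher H3K27me3 4.10%, 11.6% and 9.53%. By bases, then, lost sites had fewer higher regions and gained sites fewer lower regions of each of the 3 targets than the whole list. In the Mef2c regions lower in KO that are not lost sites, lower G9a covered 24.6% of the bases, more than at lost sites. Lower H3K27me3 covered nearly the same share there as at lost sites, and lower H3K9me2 a smaller one, 16.3%.

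**Figure D4:**
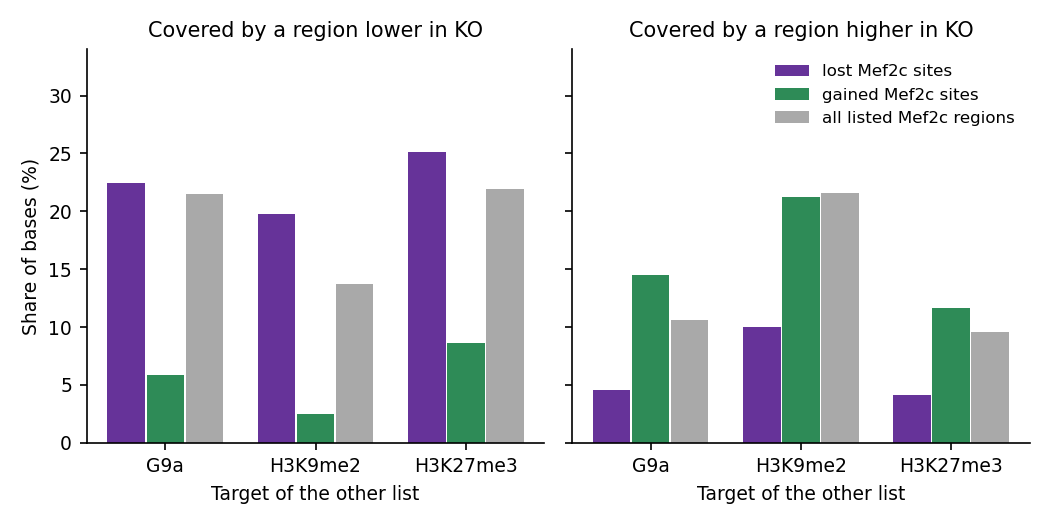
Share of the bases of lost Mef2c sites, gained Mef2c sites and all listed Mef2c regions, in percent, that lies in a listed region of G9a, H3K9me2 or H3K27me3 that is lower in KO (left) or higher in KO (right). Gained sites have the lowest bars on the left (5.87%, 2.49% and 8.64%) and lost sites the lowest on the right (4.53%, 9.99% and 4.10%).

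Several targets were listed in 1 direction together at a minority of sites. At least 2 other targets were lower, with none of their regions higher, at 718 lost sites (20.1%), against a background of 17.1%, and at 22 gained sites (2.35%). At least 2 were higher, with none of their regions lower, at 99 gained sites (10.6%), against a background of 9.53%, and at 105 lost sites (2.94%). All 3 were lower at 109 lost sites (3.05%, background 2.60%), and all 3 were higher at 12 gained sites (1.28%, background 0.915%). The shares in the site's own direction are near the background. Under the same limits of 60 and 15, another target was itself present in 1 genotype only at few sites. Regions of that kind touched 25 lost sites for G9a (0.70%, background 0.247%), 9 for H3K9me2 (0.252%, background 0.0306%) and 10 for H3K27me3 (0.280%, background 0.0824%) in the same direction, absent in KO. In the opposite direction, H3K9me2 regions absent in Cre touched 2 lost sites (0.0560%, background 0.224%), and G9a regions absent in KO touched 2 gained sites (0.213%, background 0.247%). Regions absent in Cre touched 9 gained sites for H3K9me2 (0.961%, background 0.224%), 1 for G9a (0.107%, background 0.0216%) and 0 for H3K27me3 (background 0.0248%).

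Single regions of the other targets were also read by whether the genotypes overlap, with both KO values under both Cre values or over them. At lost sites both KO values were under both Cre values in 53.7% of the 1323 G9a regions (background 39.2% of that target's list), 39.9% of the 1486 H3K9me2 regions (background 24.8%) and 64.5% of the 1301 H3K27me3 regions (background 44.5%). They were over both Cre values in 12.1% for G9a (background 22.3%), 25.8% for H3K9me2 (background 40.9%) and 11% for H3K27me3 (background 22.6%). At gained sites the shares under were 22.4% of 259, 8.93% of 291 and 31.4% of 255 regions in the same order of targets, and the shares over were 44.0%, 59.5% and 32.9%. H3K9me2 regions at gained sites thus had the highest share with both KO values over both Cre values, but so did that target's whole list (59.5% against 40.9%). For G9a the share was 44.0% against 22.3%, and for H3K27me3 32.9% against 22.6%. H3K27me3 regions at gained sites were split about evenly, where the whole list of that target leaned to lower.

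Region by region, limma on log2(value + 1) over each whole list called no region at a lost or gained site for any target at an adjusted p under 0.05. Over the whole lists it called 0 of 621134 G9a regions (0%), 0 of 716658 H3K9me2 regions (0%) and 6 of 504986 H3K27me3 regions (0.00119%). At an unadjusted p under 0.05, 164 of the 1323 G9a regions at lost sites were lower in KO (12.4%, background 5.12%) and 10 higher (0.756%, background 1.38%). For H3K9me2, 126 of 1486 were lower (8.48%, background 2.89%) and 82 higher (5.52%, background 8.19%), and for H3K27me3, 366 of 1301 were lower (28.1%, background 12.3%) and 31 higher (2.38%, background 3%). At gained sites, 13 of 259 G9a regions were lower (5.02%, background 5.12%) and 17 higher (6.56%, background 1.38%). For H3K9me2, 3 of 291 were lower (1.03%, background 2.89%) and 54 higher (18.6%, background 8.19%). For H3K27me3, 29 of 255 were lower (11.4%, background 12.3%) and 19 higher (7.45%, background 3%). The shares of lower G9a and lower H3K27me3 regions at gained sites were thus near the background. Only regions that differ entered the lists, so the limma p-values may come out too low, which was not tested. Scaling each target's libraries to the same median changed the splits: at gained sites H3K27me3 then had 8 lower and 51 higher, and at lost sites G9a had 88 lower and 33 higher. Without the first KO value, the adjusted test called 263 G9a regions at lost sites and 13 at gained sites, and 64315 over the whole list.

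Single sites show how differently the other targets can behave. Among lost sites with G9a lower, the site 30883 bp from Tpcn2, a lysosomal cation channel gene, had Mef2c values of 0 and 15 in KO and 77 and 148 in Cre. The G9a region there had 147 and 117 in KO and 625 and 523 in Cre (limma adjusted p = 0.454). Both G9a libraries of KO lie far under both of Cre. The site in Med12l, shown above, ran the other way: G9a had 257 and 321 in KO and 12 and 112 in Cre, and H3K27me3 had 591 and 733 in KO and 484 and 143 in Cre. At the lost site in Fhit, a gene of a common fragile site, H3K9me2 had 301 and 409 in KO and 62 and 29 in Cre, while Mef2c had 7 and 8 in KO and 79 and 97 in Cre. At both sites Mef2c and another target stand in opposite directions. Near Dcpp3, within 25 Mb of Ehmt2, all 3 targets were listed as lower beside Mef2c at 10 and 9 in KO and 171 and 207 in Cre. H3K27me3 there had 464 and 218 in KO and 1432 and 1652 in Cre, and G9a had 114 and 153 in KO and 567 and 318 in Cre. The H3K9me2 region had 23 and 47 in KO and 208 and 143 in Cre. In Scn3a's neighbourhood the marks split, with G9a at 103 and 360 in KO and 43 and 50 in Cre, and H3K27me3 at 93 and 20 in KO and 304 and 253 in Cre.

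At gained sites, Dnah8, an axonemal dynein heavy chain gene also within 25 Mb of Ehmt2, combined Mef2c values of 77 and 94 in KO and 4 and 14 in Cre with higher marks. H3K9me2 there had 807 and 1005 in KO and 281 and 318 in Cre, and H3K27me3 had 536 and 658 in KO and 199 and 189 in Cre. The KO and Cre libraries do not overlap for either mark. In Wnt16, a Wnt ligand gene, Mef2c had 81 and 69 in KO and 11 and 0 in Cre, and G9a had 138 and 92 in KO and 0 and 0 in Cre. Near Marveld2, a tight junction protein gene, Mef2c had 223 and 147 in KO and 9 and 14 in Cre, G9a 417 and 456 in KO and 112 and 168 in Cre, and H3K9me2 231 and 178 in KO and 61 and 51 in Cre. Unc80, a subunit of the NALCN sodium leak channel, had lower regions at its gained site, with Mef2c at 277 and 160 in KO and 15 and 8 in Cre. There H3K27me3 had 841 and 519 in KO and 1245 and 1189 in Cre, and G9a had 120 and 22 in KO and 270 and 194 in Cre. Adjusted p-values by limma were 0.322 or more at all of these regions. Lower regions were common at gained sites: of those touched, 50.2% had a lower H3K27me3 region and 36.2% a lower G9a region.

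Lists of cardiac and other genes, 335 genes in 18 lists, were searched for sites inside or within 2 kb, read beside the 5.86% and 2.27% of all genes. The lists differ in gene length, which moves with the count, and no list was tested. Of 22 sarcomere genes, 1 (4.55%) had a lost site, Nebl, which encodes nebulette of the Z-disc, and 1 had a gained site, Pdlim5, a Z-disc adaptor. Nebl had 6 and 1 in KO and 113 and 94 in Cre, and Pdlim5 had 107 and 90 in KO and 13 and 1 in Cre. None of 20 cardiac transcription factor genes and none of 12 cardiomyocyte marker genes had either.

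Of 19 calcium handling genes, 3 (15.8%) had a lost and 2 (10.5%) a gained site. Itpr2, an inositol trisphosphate receptor, had 8 and 11 in KO and 140 and 76 in Cre at its lost site, and Camk2d, the main cardiac calmodulin kinase, had 11 and 5 in KO and 113 and 72 in Cre. Slc8a1, the sodium and calcium exchanger, had both kinds of site: a lost one with 12 and 5 in KO and 69 and 72 in Cre, and a gained one with 138 and 90 in KO and 11 and 0 in Cre. The 2 lie within 5 kb of each other, so the gene has no single direction. Asph, whose locus also encodes junctin of the sarcoplasmic reticulum, had 2 gained sites, with 64 and 122 in KO and 0 and 3 in Cre at one and 92 and 72 in KO and 0 and 0 in Cre at the other. Of 22 ion channel and junction genes, Cacna1d, an L-type calcium channel subunit, had 2 lost sites (0 and 12 in KO, 81 and 72 in Cre, and 0 and 14 in KO, 76 and 72 in Cre). It also had a gained site with 77 and 159 in KO and 0 and 6 in Cre. Cdh2, the N-cadherin of intercalated discs, had 2 lost sites with KO values of 0 to 15 and Cre values of 74 to 156. H3K27me3 over the 2 lost sites of Cacna1d was listed as lower as well, with 218 and 167 in KO and 367 and 566 in Cre at one and 102 and 366 in KO and 640 and 700 in Cre at the other.

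Genes that restrain cardiac growth had a lost site at 3 and a gained site at 3 of 19 (15.8% each). The lost sites lay at Foxo1, a transcription factor inhibited by insulin signalling (5 and 0 in KO, 191 and 135 in Cre), in Gsk3b, a kinase that opposes hypertrophic signalling (13 and 0 in KO, 92 and 66 in Cre), and in Hdac9 (10 and 13 in KO, 90 and 77 in Cre). Gained sites lay in Hdac4 (109 and 70 in KO, 5 and 0 in Cre), in Pik3ip1, an inhibitor of PI3 kinase (116 and 73 in KO, 12 and 15 in Cre), and again in Hdac9 (67 and 81 in KO, 0 and 14 in Cre). Hdac4 and Hdac9 encode class IIa deacetylases that bind MEF2 factors. At the gained site of Hdac9, H3K9me2 was listed as higher, with 132 and 184 in KO and 33 and 69 in Cre (limma adjusted p = 0.400). H3K27me3 was listed as higher there too, but with 28 and 137 in KO and 3 and 31 in Cre its genotypes overlap. At the lost site of Gsk3b, G9a had 27 and 6 in KO and 132 and 164 in Cre (limma adjusted p = 0.454).

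Among 21 muscle genes known as MEF2 targets, 2 had a lost site and 2 a gained site. Ppargc1a, which encodes the mitochondrial coactivator PGC-1alpha, had 4 lost sites spread over its 662 kb. Their values were 1 and 8 in KO and 158 and 133 in Cre, 2 and 0 in KO and 141 and 116 in Cre, 0 and 0 in KO and 76 and 130 in Cre, and 0 and 2 in KO and 110 and 98 in Cre. All 4 sites were at 8 or less in both KO libraries. G9a over 2 of them was listed as lower too, with 60 and 117 in KO and 157 and 220 in Cre at one and 95 and 0 in KO and 195 and 178 in Cre at the other. Ppargc1a was also the only one of 22 fatty acid and mitochondrial genes with a lost site, and none had a gained one. Smyd1, a muscle methyltransferase gene, had a gained site with 93 and 82 in KO and 14 and 12 in Cre. Hdac9 belongs to this list as well.

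Among 19 genes of hypertrophy and the fetal programme, none had a lost site and 2 had a gained site. Myl4, the essential light chain of atrial and fetal ventricular muscle, had 131 and 90 in KO and 6 and 8 in Cre, with H3K27me3 at 208 and 209 in KO and 110 and 20 in Cre. Nfatc2, a calcineurin-dependent transcription factor, had 64 and 110 in KO and 0 and 9 in Cre, with H3K27me3 at 58 and 103 in KO and 8 and 8 in Cre. At both genes the repressive mark was listed as higher where the Mef2c site was gained. Of 16 glycolysis genes, Pfkl, a phosphofructokinase, had a gained site (86 and 147 in KO, 2 and 6 in Cre). Of 26 autophagy genes, Atg14, of the autophagy PI3 kinase complex, had a lost site within 2 kb (11 and 0 in KO, 179 and 60 in Cre).

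Of 20 genes of H3K9 methylation, 2 (10%) had a lost site: Setdb2, a lysine methyltransferase (10 and 13 in KO, 149 and 96 in Cre), and Kdm3b, a demethylase (0 and 12 in KO, 108 and 67 in Cre). None of 22 Polycomb genes had a lost or gained site. Of 14 housekeeping genes, 1 had a gained site, Tbp, the TATA-binding protein (66 and 90 in KO, 6 and 0 in Cre).

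Marker genes of other cells that the population could hold were searched as well. Of 20 endothelial markers, 5 had a lost site and none a gained one. Erg, an ETS factor of endothelium, had 2 lost sites, with 3 and 7 in KO and 167 and 142 in Cre at one and 3 and 13 in KO and 76 and 97 in Cre at the other. The lost site within 2 kb of Tek, the angiopoietin receptor, had 2 and 11 in KO and 162 and 87 in Cre. It lies outside Tek, and its nearest protein-coding gene is Eqtn. Sox17 (13 and 1 in KO, 70 and 122 in Cre), Vwf (3 and 13 in KO, 71 and 107 in Cre) and Tie1 (4 and 15 in KO, 66 and 79 in Cre) were the others. The count is 25% of the list, against 5.86% of all genes. The median length over the list was 19.2 kb, but 3 of the 5 genes with a site are long, with 227 kb for Erg, 136 kb for Tek and 134 kb for Vwf. The parts of gene length and of endothelial cells in the count were not tested. Of 18 fibroblast and matrix markers, Fstl1 had a lost site (0 and 15 in KO, 88 and 91 in Cre) and Col1a1 a gained one (275 and 128 in KO, 15 and 9 in Cre). Of 19 immune markers, Adgre1 had a lost site (0 and 5 in KO, 110 and 68 in Cre), and of 12 smooth muscle and pericyte markers, Pdgfrb had one (15 and 10 in KO, 123 and 121 in Cre).

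**Figure D5:**
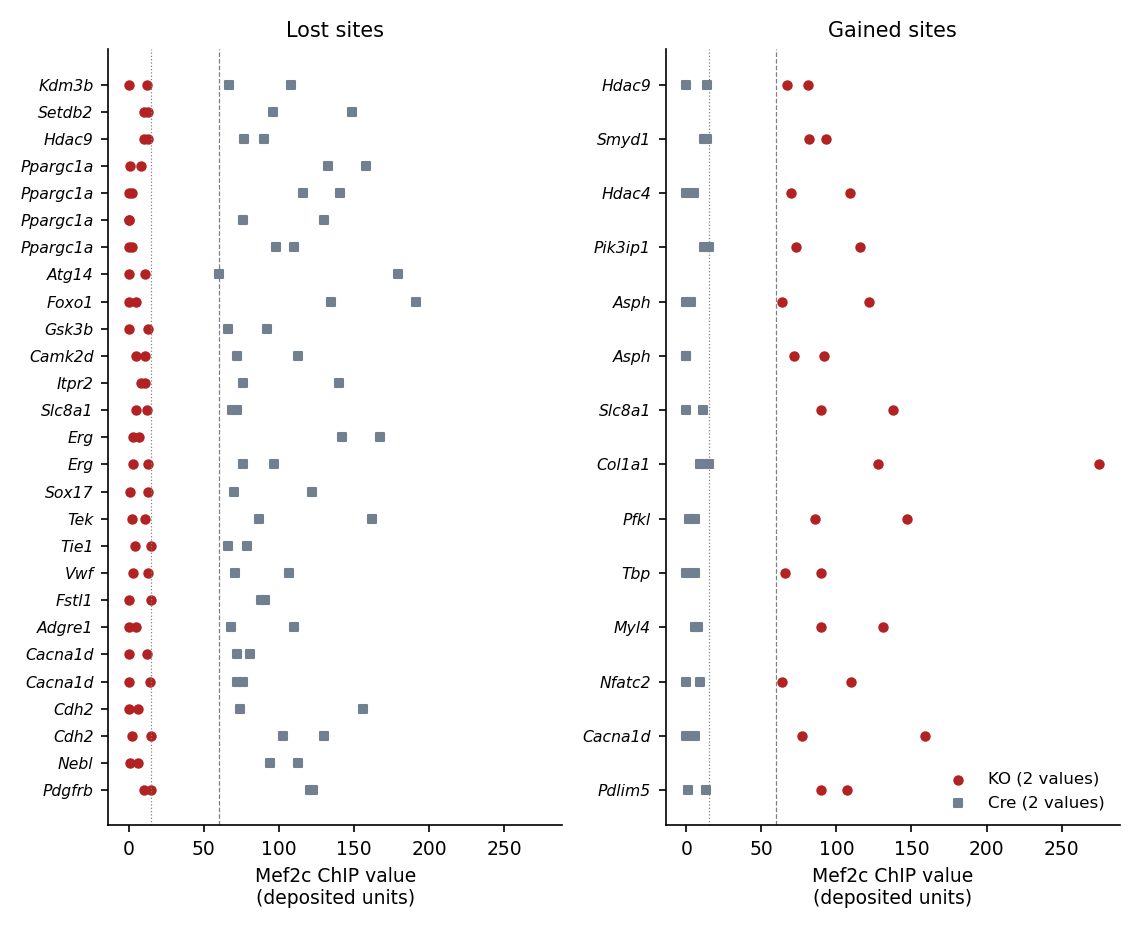
Deposited Mef2c value at each lost site (left) and gained site (right) inside or within 2 kb of a gene of the 18 lists, 1 row per site, with 2 circles for the KO libraries and 2 squares for the Cre libraries. Dotted and dashed lines mark the limits of 15 and 60. Ppargc1a has 4 rows on the left, and Hdac9, Slc8a1 and Cacna1d stand on both sides.

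Gene families taken by the start of their symbol varied in the same way. A lost site lay at 8 of 1104 olfactory receptor genes (0.725%) and 5 of 354 vomeronasal receptor genes (1.41%), all short genes. It lay at 16 of 92 genes of the potassium channel group (17.4%), which also holds genes of channel-interacting proteins such as Kcnip1 and Kcnip4. Solute carriers had one at 30 of 376 (7.98%) and Zfp zinc finger genes at 15 of 391 (3.84%). Gained sites lay at 1 olfactory receptor gene and 0 vomeronasal receptor genes. They lay at 6 genes of the potassium channel group (6.52%), 6 solute carriers (1.60%) and 7 Zfp genes (1.79%).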

How the data were processed

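ChIP-seq libraries of G9a (Sigma G6919), H3K9me2 (Abcam ab1220), H3K27me3 (Millipore 07-449) and Mef2c (Abcam ab43796) were compared. BWA 0.7.10-r789, SAMtools 1.1 and the build mm10 (GRCm38) are named, per the submitters' processing notes. The series text names H3K27me2 once, and the name in the sample labels was used. The authors deposited 1 list of regions per target, each with 2 Cre values, 2 KO values and a -log10 p, and these signal values were used as deposited. The region caller, their scale and any use of the input were not given in the sources used here. The order of the values, Cre then KO, comes from the name of each list. Region ends are multiples of 50 bp, and no region is shorter than 350 bp.

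The limits of 60 and 15 were applied on chromosomes 1 to 19. Overlaps of at least 1 base, distances to RefSeq genes and log2 ratios (1 added to each mean) were computed with Python 3.11.15 and pandas 2.3.3. The other 3 targets were tested with limma 3.58.1 (empirical Bayes with trend, log2(value + 1), Benjamini-Hochberg adjustment) on each whole list, and sums with an exact two-sided permutation test. The limma fit and the overlap and distance functions were tested on simulated data. The limma simulation held no choice of differing regions, so it cannot show how limma behaves on these lists. The values are not stated to be counts, so no count test was run, and p-values measure only the spread between these libraries. Named sites were those with the highest -log10 p, the highest values, the listed genes and the largest changes of another target. Some items, 1 gene of the lists among them, are not reported here. The members and lists were chosen with earlier results of these data known. Alternatives were other limits, scalings, overlaps, distances and leaving out each value.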

Additional observations from a re-analysis of the deposited data

How the results depend on the processing

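The number of lost sites was 3570 as reported, 1169 with limits of 80 and 10, 6964 with limits of 50 and 20, and 1754 with limits per kb. It was 4010 to 34233 with 1 of the 4 values left out. The number of gained sites was 937 as reported and 241, 2056 and 373 under the same limits, and 1084 to 12661 with 1 value left out. Leaving out the first or second KO value gave 25343 or 34233 lost sites, and leaving out the first or second Cre value gave 10254 or 12661 gained sites. The ratio of lost to gained sites was 21.6 and 31.6 without the first and second KO value, and 0.391 and 0.337 without the first and second Cre value. Without a value the rule asks for 1 low value in that genotype and still for 2 in the other, so these counts and ratios follow from the looser rule.

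Requiring an overlap of at least 50% of the site changed the shares of sites with a lower region from 28.6% to 24.1% (G9a), 25.3% to 21.6% (H3K9me2) and 29.7% to 26.3% (H3K27me3) at lost sites. At gained sites they were 5.87%, 2.45% and 8.54%, and over all listed Mef2c regions 21.2%, 13.7% and 21.5%, against 31.1%, 21.2% and 29.8% as reported. With only regions of the other target at a -log10 p of at least 5 they were 19.3%, 13.7% and 22.4% at lost sites, 5.23%, 1.81% and 8.32% at gained sites, and 19.2%, 10.3% and 20.6% over all. Lower G9a at lost sites was thus under the background as reported, above it with the larger overlap and level with it at the stricter -log10 p. With limits of 80 and 10, the H3K27me3 share at gained sites was 9.13%. With each value of the other target left out, the shares at lost sites were 27.5% to 28.3%, 23.4% to 25.5% and 29.0% to 29.7%, and at gained sites 9.39% to 10.5%, 4.59% to 5.44% and 12.4% to 12.9%. Each share at gained sites was lower than at lost sites under all of these settings.

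Regions at either kind of site with an unadjusted limma p under 0.05 numbered 204 for G9a, 265 for H3K9me2 and 445 for H3K27me3, and 47 to 643, 151 to 418 and 178 to 501 with 1 value left out. Where a genotype keeps 1 library, that library is assumed to vary like the other genotype. With the first or the second Cre value left out, the H3K9me2 regions at lost sites under that p limit turned to mostly higher. Their split was 126 lower and 82 higher as reported. The median limma log2 ratio of all H3K9me2 regions at lost sites was -0.421 and -0.682 in these 2 settings, against -0.700 as reported. The split also turned for H3K27me3 at gained sites without either Cre value, and for G9a at gained sites without either KO value. Scaling to the same median gave 296 for H3K27me3. Within 2 kb, within 50 kb and with all genes of the annotation, the share near a gene was 38.6%, 62.3% and 62.6% for lost sites and 50.7%, 70.7% and 69.7% for gained sites, against 64.8% of all listed Mef2c regions with all genes. No paired analysis was possible because the deposited values carry no replicate number. The cause of these shifts was not tested. Over all results, 56 alternatives kept the value within the spread or within 1.5 times and 41 moved it. Without either Cre value the H3K9me2 split at lost sites turned, as given. Each site rests on 2 values per genotype of unstated scale, so a value of 0 cannot be read as absence of Mef2c.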

Other observations

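On chromosome X, which the rule leaves out, the same limits gave 12 lost and 8 gained sites among 1946 listed Mef2c regions. The background on chromosomes 1 to 19 was 0.670% lost and 0.176% gained, and the difference was not tested. Of 919 miRNA hairpins, 2 had a lost site within 2 kb and none had a gained one. No background for hairpins was computed. Near Mir3072 the site had Mef2c values of 10 and 1 in KO and 148 and 87 in Cre, and near Mir7000 10 and 2 in KO and 99 and 113 in Cre. The glucocorticoid receptor gene Nr3c1, picked out after its values were seen, had 2 gained sites, with 146 and 147 in KO and 3 and 7 in Cre at one and 77 and 99 in KO and 7 and 9 in Cre at the other. A lost site 630 bp from Nr3c1 had 0 and 1 in KO and 105 and 96 in Cre, so this gene has both kinds of site.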
